A study of Homo sapiens with 15 samples.

Results

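The SETD2 KO2 clone carried 3774 accessible regions that neither WT cells nor the KO1 clone had, 1.28% of the 295008 regions in the peak set, and the 6 SETD2 rescue libraries held from 43.0% to 65.6% of them. These KO2-private regions were chosen by called ATAC-seq peaks: a peak in all 3 KO2 libraries and in none of the 3 KO1 and 3 WT libraries. The rescue libraries played no part in the choice beyond the merging of overlapping peaks into regions. All 6 rescue libraries held 945 of the KO2-private regions (25.04%), against 49.3% of all regions in the peak set, and no rescue library held 872 (23.1%), against 12.6%. Here a library holds a region when a peak of that library covers at least 1 bp of it.

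ATAC-seq maps accessible DNA by the places where the Tn5 transposase can insert sequencing adapters, and it marks promoters, enhancers and other sites bound by regulatory proteins. SETD2 places the trimethyl mark on lysine 36 of histone H3 (H3K36me3), which covers the bodies of transcribed genes, and it is often lost in clear cell renal cell carcinoma. The cells were RPTEC, human renal proximal tubule epithelial cells immortalized with hTERT and kept in G418, with 3 libraries in each of 5 groups: WT, KO1, KO2, Rescue1 and Rescue2. KO1 and KO2 are single clones with frameshifts made by CRISPR/Cas9, and Rescue1 and Rescue2 are single clones of KO cells transduced with a lentivirus for FLAG-tagged full-length human SETD2 and selected with blasticidin. In its list of ATAC-seq libraries the study writes both rescue lines under the name of the KO2 line, while for another assay that name stands beside KO1. The labels themselves do not say which KO line the rescue clones came from, and peak lists do not show the edit in SETD2, so KO and rescue status rests on the labels. Libraries of a clone are not further clones, and no label says that they came from separate cultures, so the tests below measure the spread between these libraries, which may be technical.

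The shortest peak list, of WT replicate 2, had 197527 entries and the longest, of Rescue2 replicate 1, had 266011. Within KO2 the longest list was that of replicate 3, with 255339 peaks. Promoter peaks were looked up for genes that mark the labelled cell type. CDH1, EPCAM, KRT8 and KRT18, which mark epithelia, and PAX2 and PAX8, which mark the kidney lineage, had a promoter peak in every library. Of 25 genes of proximal tubule transport and metabolism, 14 had one in all 15 libraries, and 8, among them the endocytic receptor LRP2, the organic anion transporter SLC22A6 and the amino acid transporter SLC6A19, had one in none. For cells that should be absent, 4 of 10 endothelial and 4 of 12 haematopoietic marker genes had a promoter peak in all libraries, as did 8 of 12 neuronal and 23 of 24 mesenchymal and EMT genes, so that promoter peaks alone do not separate cell types here. VWF, TEK, PTPRC and SPI1 had none in any library.

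The sequences at the summits show what the 2 ends of the set look like. They are 150 bp around the KO2 summit of regions among the 6 with the highest KO2 fold enrichment rank in each class, read from the plus strand of hg38. Capitals mark matches, on either strand, to short motifs listed further on. Of regions held by all 6 rescue libraries, the first lies in an intron of UNC13C, a factor of synaptic vesicle priming (chr15:54150346-54150495), and the second 56082 bp from RXRA, the retinoid X receptor (chr9:134496648-134496797).
UNC13C region: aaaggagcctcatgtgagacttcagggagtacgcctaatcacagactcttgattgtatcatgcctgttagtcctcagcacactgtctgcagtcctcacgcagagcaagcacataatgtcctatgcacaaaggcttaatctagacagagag
RXRA region: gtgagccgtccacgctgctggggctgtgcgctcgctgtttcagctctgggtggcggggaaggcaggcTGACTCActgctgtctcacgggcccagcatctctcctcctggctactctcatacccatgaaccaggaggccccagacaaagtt
The RXRA region carries 1 AP-1 match, TGACTCA, and the UNC13C region carries no match to any motif searched.

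For regions held by no rescue library, the first lies 342486 bp from ACTRT1 on chromosome X (chrX:127708263-127708412). The second lies 103998 bp from CHL1, a neural cell adhesion molecule (chr3:513463-513612), and the third 173406 bp from PRDM9, the meiotic histone methyltransferase (chr5:23270101-23270250).
ACTRT1 region: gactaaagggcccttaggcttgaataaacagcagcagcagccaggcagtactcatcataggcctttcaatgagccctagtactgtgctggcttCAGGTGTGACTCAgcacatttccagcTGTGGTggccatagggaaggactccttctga
CHL1 region: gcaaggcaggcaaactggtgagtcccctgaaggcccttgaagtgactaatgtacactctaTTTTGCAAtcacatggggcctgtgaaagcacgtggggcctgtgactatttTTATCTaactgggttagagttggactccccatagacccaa
PRDM9 region: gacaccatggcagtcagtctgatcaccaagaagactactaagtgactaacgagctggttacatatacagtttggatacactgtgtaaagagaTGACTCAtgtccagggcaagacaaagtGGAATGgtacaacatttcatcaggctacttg
In the ACTRT1 region an E-box match runs directly into an AP-1 match, and a RUNX match follows. The CHL1 region carries a C/EBP and a GATA match, and the PRDM9 region an AP-1 and a TEAD match.

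Fold enrichment, the height of a summit over the background of its own library as the authors' peak caller gave it, was high in KO2 at all of these regions. At the UNC13C region it was 15.6, 16.4 and 16.1 in KO2, 17.8, 18.4 and 17.9 in Rescue1 and 13.8, 8.62 and 8.85 in Rescue2, so that Rescue1 stood above KO2 and Rescue2 below it. At the RXRA region it was 14.0, 19.6 and 15.5 in KO2, 19.3, 12.1 and 19.2 in Rescue1 and 16.7, 18.5 and 16.2 in Rescue2, and the groups overlapped. At the ACTRT1 region it was 14.0, 15.6 and 14.7 in KO2, at the CHL1 region 11.6, 10.9 and 12.7, and at the PRDM9 region 12.6, 9.72 and 12.2. No rescue library had a called peak at any of these last 3 regions, which means that signal there was below the calling threshold, not that the DNA was closed. These values are relative to each library's own background and were not tested between libraries.

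To ask how far accessibility found in KO2 alone was shared by the rescue clones, the percentage of KO2-private regions held was compared with 2 other sets. KO1-private regions, chosen by the mirrored rule, numbered 2255, and regions gained in both KO clones, held by every KO1 and KO2 library but by no WT library, numbered 14118. Rescue1 libraries held 46.8, 43.0 and 45.6% of the KO2-private regions, and Rescue2 libraries held 65.6, 56.2 and 48.6%. The same libraries held 10.95, 9.93 and 10.5% (Rescue1) and 14.5, 11.4 and 7.45% (Rescue2) of the KO1-private regions. The mean was 51.0 ± 8.44% for KO2-private and 10.8 ± 2.27% for KO1-private regions (SD, n = 6 libraries), a difference of 40.2 ± 6.89 percentage points that had the same sign in 6 of 6 libraries (exact sign-flip permutation test over libraries, two-sided, p = 0.03125, the smallest that 6 libraries allow). Regions gained in both KO clones were held more often than KO2-private ones, at 64.9 ± 5.85%, and here the difference of -13.9 ± 2.76 percentage points was negative in 6 of 6 libraries (same exact test, p = 0.03125).

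**Figure D1:**
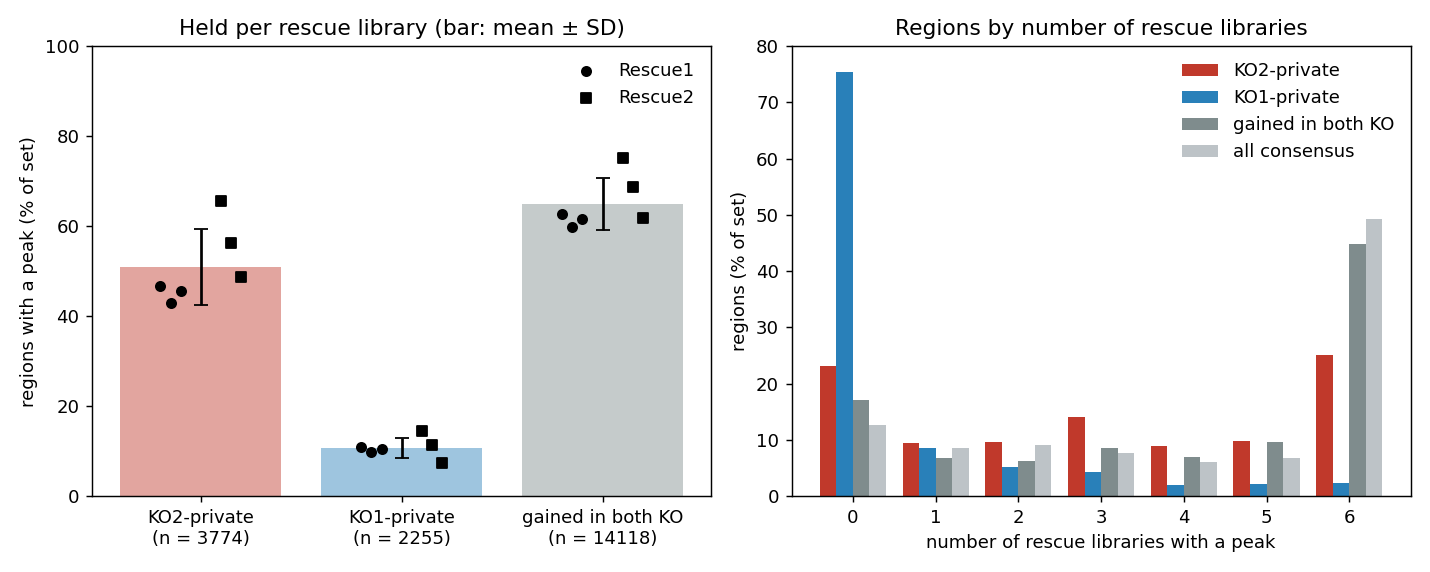
Left, percentage of each set of regions held by the 3 Rescue1 (circles) and 3 Rescue2 (squares) libraries, with bars for the mean and error bars for the SD over the 6 libraries. Right, percentage of each set by the number of rescue libraries (0 to 6) that hold a region: KO2-private regions pile up at both ends, with 23.1% at 0 and 25.04% at 6, while 75.4% of KO1-private regions stand at 0.

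The KO2-private regions thus split toward both ends of the scale. Between the 872 regions held by none (95% Wilson interval 21.8 to 24.5%) and the 945 held by all 6 (23.7 to 26.4%) lay 360, 362, 528, 335 and 372 regions held by 1, 2, 3, 4 and 5 rescue libraries. Intervals cover counting error only. Of the KO1-private regions, 1700 (75.4%) were held by none and 52 (2.31%) by all 6. Of the regions gained in both KO clones, 2413 (17.1%) were held by none and 6316 (44.7%) by all 6.

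The 2 rescue clones did not hold the same number of KO2-private regions. All 3 Rescue2 libraries and no Rescue1 library held 271 of them (7.18%), and all 3 Rescue1 libraries and no Rescue2 library held 68 (1.80%). Of the regions gained in both KO clones the counts were 613 (4.34%) and 133 (0.942%), an imbalance in the same direction. Of the KO1-private regions they were 26 (1.15%) and 31 (1.37%), with no such imbalance. Rescue2 libraries occupied 76.8, 70.9 and 62.8% of all regions, against 66.1, 62.8 and 63.9% in Rescue1, so that the clones overlapped. The mean held was 56.8 ± 8.49% in Rescue2 and 45.1 ± 1.92% in Rescue1 (SD, n = 3 each), a difference of 11.7 percentage points in which no Rescue1 library reached any Rescue2 library. With 3 libraries against 3 the exact permutation test gave p = 0.1, the smallest it can give, so the design cannot pass 0.05. Without Rescue2 replicate 1, which has the longest peak list of the series, the difference was 7.30 percentage points, and with the lists cut to 150000 peaks each it was 6.89.

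The edges of the rule were as follows. Regions with a peak in 2 of 3 KO2 libraries and no KO1 or WT library, just outside the rule, numbered 6458, and rescue libraries held 31.8 ± 8.24% of them. Regions with a peak in all 3 KO2 libraries and in 1 of the 6 KO1 and WT libraries numbered 3819, and 54.9 ± 8.71% of them were held. The size of the set rests on KO2 replicates 1 and 2. Without replicate 2 the rule gave 6889 regions, of which 17.5% were held by all rescue libraries and 30.1% by none, and without replicate 1 it gave 6311, with 18.6% and 28.6%. With 150000 peaks in every list the rule gave 2017 regions.

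Regions held by all 6 rescue libraries had higher ranked peaks in KO2 and more GC than regions held by none. The median rank of fold enrichment within a KO2 list (0 lowest, 100 highest) was 36.8 for regions held by all 6 and 28.1 for regions held by none. Median GC content in 200 bp around the centre was 50% and 46.5%, against 47.5% for all regions in the peak set. The median distance to the nearest start site of a protein-coding or lncRNA gene was 12234 bp for regions held by all 6 and 23297 bp for those held by none. Regions held by all 6 were also nearer to other accessible DNA, at a median of 2366 bp from a KO1 or WT peak against 4212 bp. Their median width of 270 bp against 168 bp is in part built in, since rescue peaks were merged into the regions they overlap.

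The link with GC was tested over libraries. KO2-private regions were sorted by GC into terciles, the lowest with 31 to 45% GC and the highest with 51 to 84%. Rescue libraries held 45.8 ± 7.86% of the lowest and 57.6 ± 7.99% of the highest tercile (SD, n = 6), a difference of 11.8 ± 1.85 percentage points that was positive in 6 of 6 libraries (exact sign-flip permutation test, two-sided, p = 0.03125). It was 6.84 with 150000 peaks in every list and 7.12 with peaks of −log10 q of 5 or more, positive in both. By the rank of the KO2 peak, 46.2 ± 7.77% of the lowest, 47.0 ± 8.05% of the middle and 59.7 ± 10.0% of the highest tercile were held, which is given with no test. The GC difference was seen at each KO2 rank. In the lowest rank tercile 41.5% of the regions with low GC and 51.0% of those with high GC were held, in the middle one 40.9% and 56.1%, and in the highest one 55.4% and 65.6%.

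**Figure D2:**
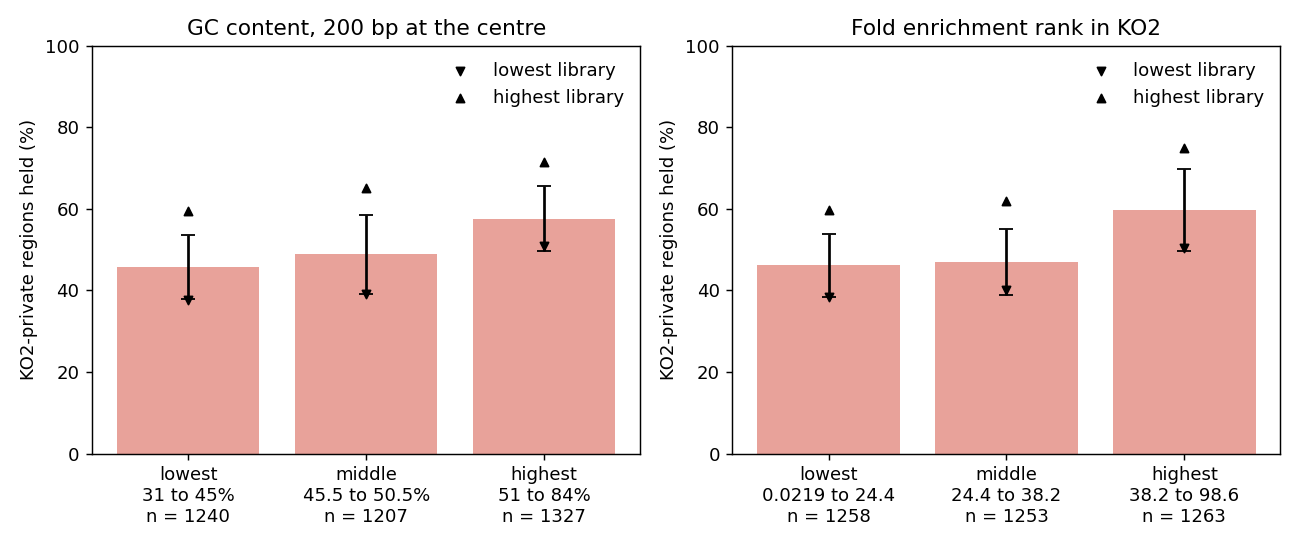
Percentage of KO2-private regions held by rescue libraries, by GC content (left) and by rank of fold enrichment in KO2 (right), each split into 3 groups of near-equal size. Bars and error bars are the mean and SD over 6 rescue libraries, and triangles mark the lowest and highest library; the highest GC group stands at 57.6% and the lowest at 45.8%.

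By position in genes the set was poor in promoters, as were the KO1-private regions, of which promoters made up 5.32%. Promoters (1000 bp before to 100 bp after a start site) made up 5.62% of the KO2-private regions and 10.8% of all regions, exons 6.15% and 5.85%, introns 55.1% and 53.9%, and intergenic DNA 33.1% and 29.5%. Intergenic regions made up 38.6% of those held by none and 30.2% of those held by all 6, while introns made up 50.6% and 56.8%. Promoters took nearly the same share of both, 5.50% and 5.71%. Among all promoter regions of the peak set 67.7% were held by all 6 and 7.23% by none, and among all intergenic regions 45.5% and 14.2%, against 25.5% and 22.6% of KO2-private promoter and 22.8% and 26.9% of KO2-private intergenic regions. Rescue libraries held 49.8 ± 6.81% of the 212 promoter regions and 48.3 ± 9.78% of the 1251 intergenic regions, and the difference of 1.57 ± 4.28 percentage points, positive in 4 of 6 libraries, did not pass the exact sign-flip permutation test (two-sided, p = 0.40625). The difference was -0.725 without regions that had a KO1 or WT peak within 1000 bp, and 4.75 with 150000 peaks in every list. It passed the test in neither.

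COL5A1, which encodes a chain of the fibril-forming type V collagen, was the gene with most KO2-private regions held by all 6 rescue libraries. The gene (ENSG00000130635, plus strand, chr9:134641803-134844843) and 10000 bp on each side held 34 regions of the peak set, of which 18 (52.9%) were KO2-private and 14 of these made up that count. Rescue1 libraries held 16, 15 and 16 of the 18 and Rescue2 libraries 17, 17 and 15. All but the first, which lies before the gene, and 1 in a promoter lay in introns. That promoter was not among those of protein-coding genes, COL5A1 included. At the intron region chr9:134662174-134662679 fold enrichment was 12.5, 10.0 and 12.6 in KO2, 12.8, 10.5 and 9.26 in Rescue1 and 12.2, 12.9 and 12.3 in Rescue2, with the groups overlapping. At chr9:134689458-134689862 it was 12, 11.8 and 10.7 in KO2, 14.6, 15.4 and 14.7 in Rescue1 and 15, 9.92 and 12.6 in Rescue2.

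Other regions of the COL5A1 locus were not KO2-private, because the rule had left them out by their KO2, KO1 and WT peaks. The gene was also picked for its KO2 and rescue peaks, so the values are given with no test. Over the span drawn in the map of the gene, 19 of 37 regions were not KO2-private. Of these, WT libraries held 0, 0 and 0, KO1 libraries 4, 3 and 5, KO2 libraries 13, 9 and 13, Rescue1 libraries 12, 12 and 14, and Rescue2 libraries 14, 11 and 10. So no WT library held any of these 19 regions. KO1 libraries held fewer of them than KO2 libraries, and the rescue libraries overlapped with KO2. At the KO2-private regions of the span, the WT, KO1 and KO2 peaks were fixed by the rule itself.

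**Figure D3:**
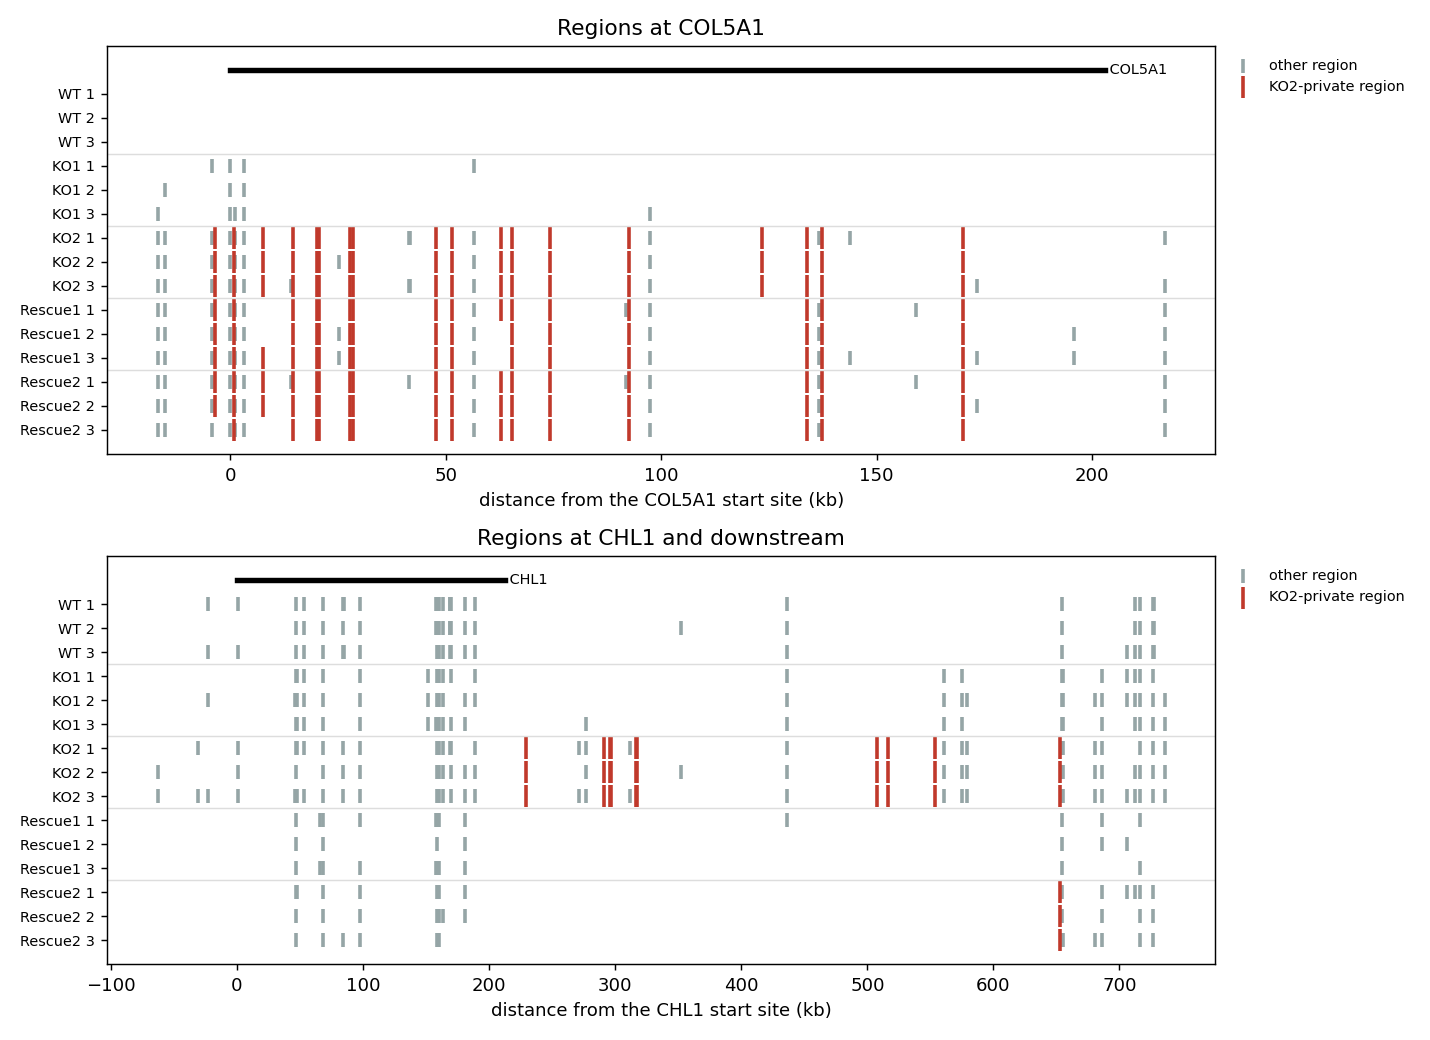
Called peaks in each of 15 libraries (rows) by distance in kb from the start site of COL5A1 (top) and CHL1 (bottom), with KO2-private regions in red, other regions in grey and the gene as a black line. At COL5A1, 14 of 18 KO2-private regions recur in all 6 rescue libraries, and at CHL1, 9 of 10 recur in no rescue library. No WT library holds any of the grey regions at COL5A1, while for the red ones the rule fixed this.

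Other genes with most regions held by all 6 were spread over several chromosomes. TSHZ3, a zinc finger transcription factor needed for ureter muscle, held 6 KO2-private regions, and all 6 rescue libraries held each of them. At its strongest, chr19:31271011-31271678, fold enrichment was 12.5, 11.2 and 11.1 in KO2, 10.2, 11.4 and 12.1 in Rescue1 and 12.6, 11.4 and 11.9 in Rescue2. MCTP2, a membrane protein with C2 domains, had 4 of 4 held by all 6, and ANK3 (ankyrin G, a membrane-cytoskeleton adaptor), ANKRD30B and DHRSX had 3 of 3 each. GSN, the actin-severing protein gelsolin, had 3 of 4, as did MAGI2, a scaffold of cell junctions, and MC2R, the receptor for ACTH. All 4 regions of the peak set at MC2R were KO2-private, and at chr18:13892792-13893347 fold enrichment was 11.8, 15.3 and 13.8 in KO2, 14.9, 12.8 and 13.5 in Rescue1 and 15.6, 12.6 and 14.6 in Rescue2.

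PTPRD, a receptor-type tyrosine phosphatase and the gene with most KO2-private regions, was split. Of its 23 regions, 5 were held by all 6 rescue libraries, 6 by none and 12 by some. Rescue1 libraries held 13, 14 and 14 of the 23 and Rescue2 libraries 12, 8 and 5. At chr9:8923270-8923538 fold enrichment was 9.28, 12.7 and 13.5 in KO2, 12.5, 11.9 and 13.3 in Rescue1 and 9.01, 11.5 and 9.38 in Rescue2. At chr9:8907967-8908153 it was 5.46, 6.86 and 7.63 in KO2 and 5.49, 7.14 and 6.004 in Rescue1, with no called peak in Rescue2. At chr9:9973094-9973455, farther toward the start of the gene, it was 8.74, 12.6 and 11.7 in KO2 and no rescue library had a called peak. UNC13C was split in a like way: of 6 regions, 1 was held by all 6 libraries, 3 by none, and 2, one of them at its promoter (chr15:53978261-53978749), by all 3 Rescue1 and no Rescue2 library.

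The genes with most regions held by no rescue library again included PTPRD, with 6, and UNC13C, with 3. GALNT17, of the family that starts mucin-type O-glycosylation, had 6 of 8 KO2-private regions held by none, and the remaining ones were held by Rescue2 libraries alone. CTNNA2 and CTNNA3, which encode alpha-catenins of cell adhesion, had 5 of 5 and 3 of 3 held by none. At the CTNNA2 region chr2:80086880-80087111 fold enrichment was 8.20, 10.3 and 9.15 in KO2. ADAMTS2, which trims the amino end of fibrillar procollagens, had 3 of 3 held by none, with 8.68, 7.42 and 7.81 in KO2 at chr5:179319754-179320433. MACROD2 had 3 of 4 held by none, and AKAP8, BCAP31 and CLSTN2 had 2 of 2. In all, 2070 of 20007 protein-coding genes had a KO2-private region in the gene or within 10000 bp. Of these, 620 had 1 or more held by all 6, 468 had 1 or more held by none and 34 had both. The same counts over all regions of the peak set are not given here, so the overlap of 34 is not read as small or large. No count was adjusted for gene length.

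At promoters, the regions of highest KO2 rank in each of the 2 classes are named. Whether the classes share fewer genes than chance would give was not tested. Of 159 KO2-private regions in promoters of protein-coding genes, 42 were held by all 6 rescue libraries and 38 by none. Over the promoters of the whole peak set, lncRNA genes included, 67.7% of regions were held by all 6 and 7.23% by none. Those with the highest KO2 rank among those held by all 6 lay at CLPB (a mitochondrial disaggregase), ZNF578, CDH10 (a type II cadherin), MCTP2, SLC2A10 (the glucose transporter GLUT10), TNFRSF10B (a TRAIL receptor), NFS1 (the cysteine desulfurase of iron-sulfur cluster assembly), SEMA4D, HJURP (the CENP-A chaperone), ZFC3H1, EME1 and PDPN (podoplanin). Those held by none lay at CDH12 (also a type II cadherin), TBX22, CFAP61, RXRG (a retinoid X receptor), PRPF4B, DLG2, SYBU, ST7L, ATP6V0A2, SRSF11, EPB41L3 and GRM3 (a metabotropic glutamate receptor). At the CLPB promoter fold enrichment was 12.1, 13.6 and 11.1 in KO2, 14.1, 13.5 and 11.5 in Rescue1 and 14.6, 12.6 and 13.03 in Rescue2. At the CDH10 promoter it was 9.29, 13.2 and 10.2 in KO2, 8.73, 8.24 and 12 in Rescue1 and 8.59, 7.18 and 6.25 in Rescue2, where all Rescue2 libraries stood below KO2. At the CDH12 promoter, on the same chromosome, it was 10.9, 7.44 and 7.12 in KO2 with no called peak in rescue.

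In places along the chromosomes, regions of 1 class lay close together. The 945 regions held by all 6 fell in 706 windows of 1000000 bp, with up to 21 in a window, and the 872 held by none fell in 656 windows, with up to 9. Of regions held by all 6, 15.1% had another such region within 50000 bp, and of those held by none, 16.6% did. For the 1957 regions held by 1 to 5 rescue libraries the share was 16.8%. That class is larger, and such a share rises with the number of regions, so the shares are not like for like. Of all KO2-private regions, 26.1% had another KO2-private region within 50000 bp. The shares that chance would give were not worked out. The fullest window of regions held by all 6 was chr9:134000001-135000000, around RXRA and COL5A1, where 29 of 146 regions were KO2-private, 21 of them held by all 6 and 1 by none. It was followed by chr19:31000001-32000000 (TSHZ3, 8 of 11), chr18:14000001-15000000 (ANKRD30B, 7 of 8), chr9:8000001-9000000 (PTPRD, 5 of 16) and chr18:13000001-14000000 (MC2R, 5 of 8). The fullest windows of regions held by none were chr2:6000001-7000000 (9 of 9), chr3:1-1000000 downstream of CHL1 (9 of 10), chr10:10000001-11000000 (9 of 10), chr5:23000001-24000000 (6 of 6) and chr7:71000001-72000000 with GALNT17 (6 of 8). The 9 regions on chromosome 2 were all intergenic, between positions 6214614 and 6674683, and the nearest protein-coding gene to the strongest of them was SOX11, 529964 bp away.

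Regions of these windows that were not KO2-private gave further values. The rule had left them out by their KO2, KO1 and WT peaks, and the windows were picked for KO2 and rescue peaks. Their values are therefore given with no test. In the TSHZ3 window WT libraries held 4, 4 and 3 such regions, KO1 libraries 14, 15 and 16, KO2 libraries 24, 20 and 28, Rescue1 libraries 32, 26 and 28 and Rescue2 libraries 43, 37 and 31. Here both rescue clones stood above WT and KO1 without overlap. In the PTPRD window WT libraries held 0, 1 and 0, KO1 libraries 1, 1 and 1, KO2 libraries 11, 8 and 18, Rescue1 libraries 24, 25 and 24 and Rescue2 libraries 17, 12 and 9. Rescue1 stood above KO2, and Rescue2 overlapped with it. In the MC2R window the order differed, with means of 38.7 in WT, 25 in KO1, 38.7 in KO2, 49.0 in Rescue1 and 47.7 in Rescue2.

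In the windows richest in regions held by none, the 2 rescue clones were alike in some and apart in others. In the CHL1 window WT libraries held 25, 22 and 24 other regions, KO1 libraries 23, 29 and 27, KO2 libraries 31, 29 and 39, Rescue1 libraries 15, 8 and 14 and Rescue2 libraries 16, 12 and 14. All rescue libraries stood below all WT and KO libraries there. In the GALNT17 window WT libraries held 4, 3 and 3, KO1 libraries 45, 41 and 41, KO2 libraries 42, 42 and 47, Rescue1 libraries 8, 6 and 7 and Rescue2 libraries 31, 26 and 24. Rescue1 lay near WT, and Rescue2 lay between WT and KO. In the chromosome 2 window means were 9.33 in WT, 27.0 in KO1, 31.7 in KO2, 16.7 in Rescue1 and 28.7 in Rescue2, and in the chromosome 10 window 24.7, 34, 44.3, 26.7 and 25.3. The chromosome 5 window held only 7 regions in all, 6 of them KO2-private.

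**Figure D4:**
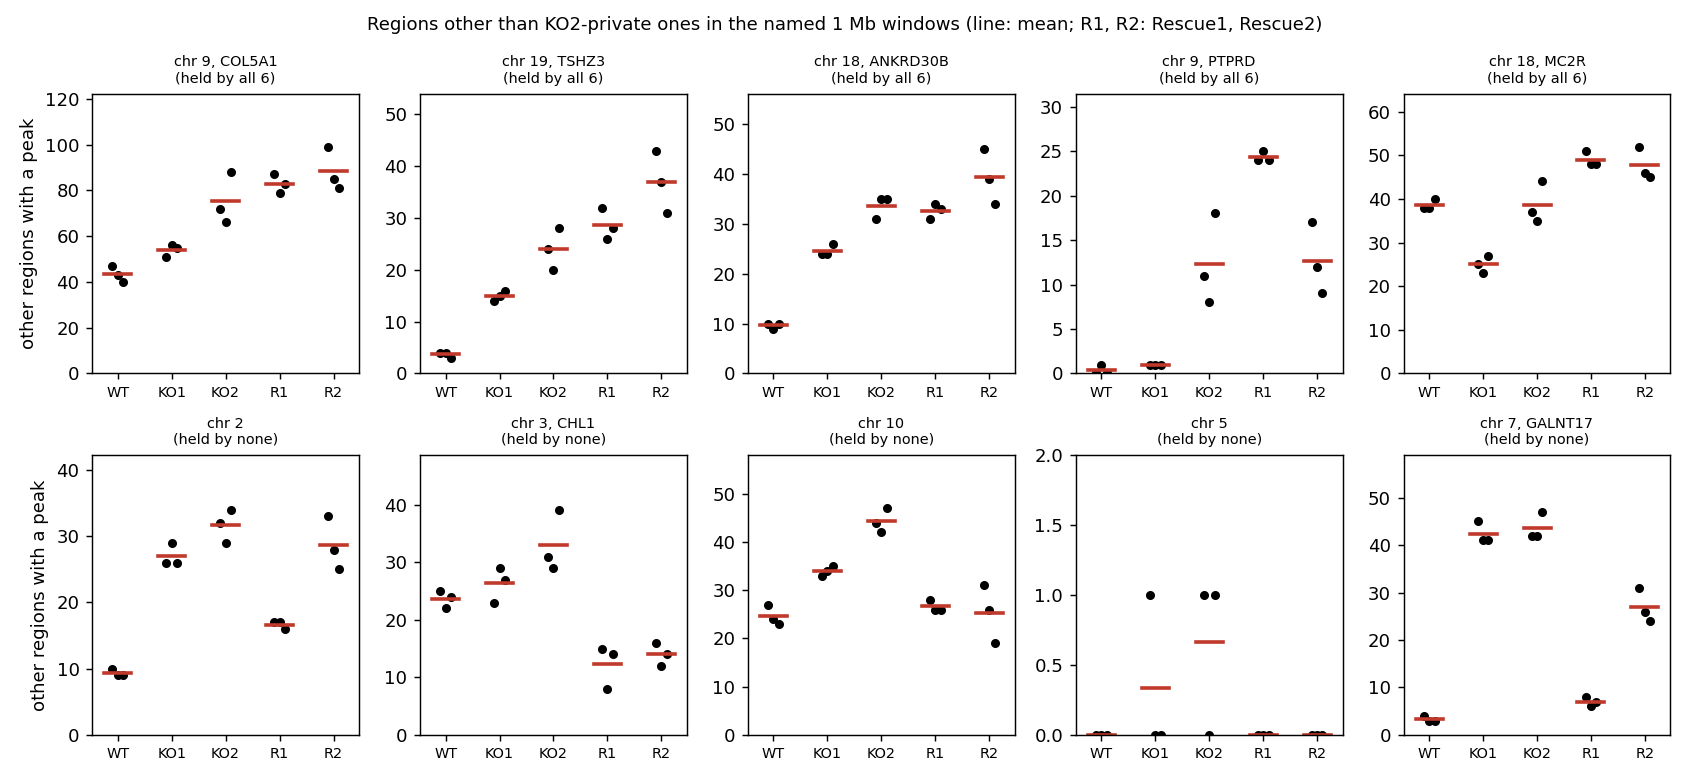
Number of regions other than KO2-private ones with a peak, per library (points, red line for the mean of 3), in the 5 windows of 1 Mb with most KO2-private regions held by all 6 rescue libraries (top) and the 5 with most held by none (bottom). Titles give the chromosome and, where KO2-private regions lie at or next to it, a gene; each axis starts at 0 and has its own scale; in the GALNT17 window WT holds 3 to 4, KO1 and KO2 41 to 47, Rescue1 6 to 8 and Rescue2 24 to 31.

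By chromosome, KO2-private regions made up from 0.951% (chromosome 17) to 1.87% (chromosome 9) of the regions in the peak set. The share held by all 6 rescue libraries was highest on chromosome 19, with 27 of 66 (40.9%, Wilson interval 29.9 to 53.0%), where 8 lay in the TSHZ3 window, and 57.6% of all regions on that chromosome were held by all 6. Leaving aside chromosome Y, with 21 KO2-private regions, it was lowest on chromosome 13 (17.7%), where 44.6% of all regions were held by all 6. The share held by none, chromosome Y again left aside, was highest on chromosome 8 (32.1%, against 14.0% of all regions there) and lowest on chromosome 22 (12.2%, against 7.75%). No test was made between chromosomes.

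**Figure D5:**
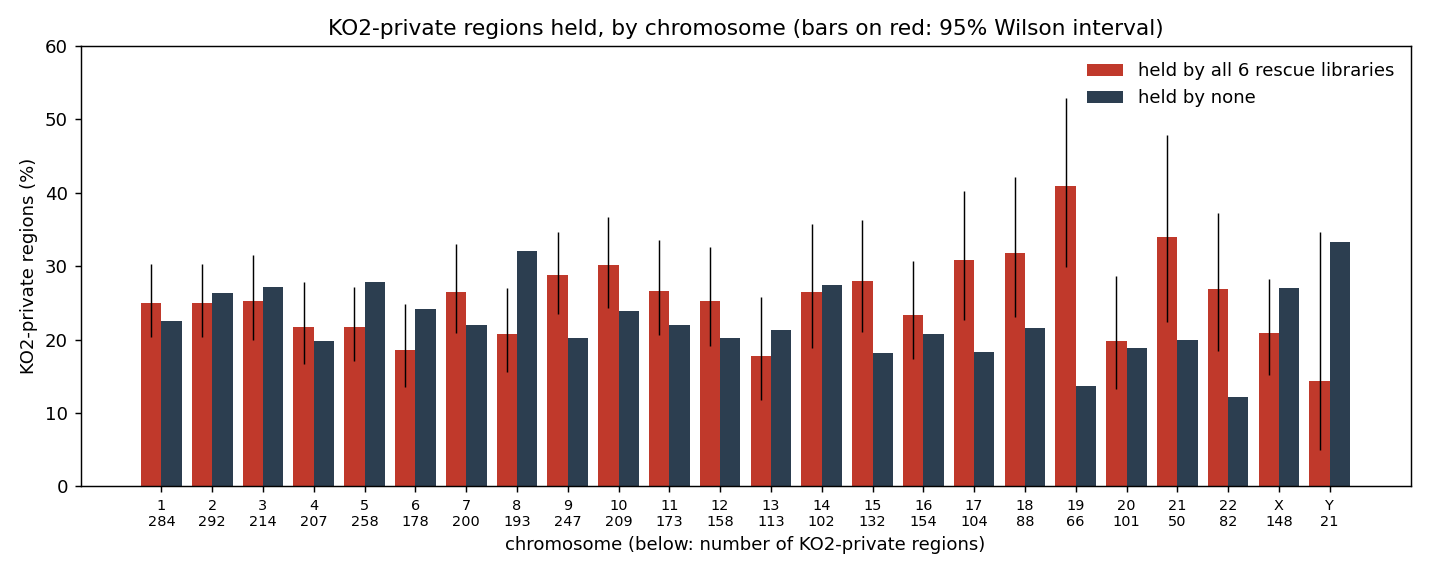
Percentage of the KO2-private regions of each chromosome held by all 6 rescue libraries (red, with 95% Wilson intervals for counting error) and by none (dark), with the number of KO2-private regions under each name. Chromosome 19 has the highest share held by all 6, 40.9% of 66, and chromosome 8 has 32.1% held by none.

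To see whether rescue libraries place their peaks differently along the genome outside the KO2-private regions, each chromosome's share of a library's occupied regions was compared between 6 rescue and 6 KO1 and WT libraries. Of 23 chromosomes, 8 differed after Benjamini-Hochberg adjustment (exact permutation test, two-sided). Chromosomes 16, 17, 22 and X had a larger share in rescue and chromosomes 3, 6, 10 and 18 a smaller one. The test pools KO1 and WT, which were apart on some of these. The KO1 and WT means were 6.83% and 6.66% on chromosome 3, 3.83% and 3.94% on 17, and 1.64% and 1.74% on 22. They were closer on chromosome 6, at 6.25% and 6.19%. Against KO1 alone 12 chromosomes differed, and against WT alone 12 did. The KO2 libraries, for which no test was made, were at the rescue level on X (2.66% in both, against 2.58% in KO1 and WT pooled). KO1 and WT were apart on X too, at 2.62% and 2.53%. The highest KO1 or WT library there, at 2.65%, stood above the lowest rescue library, at 2.64%. On chromosome 17 the KO2 share of 3.84% was below the pooled KO1 and WT mean of 3.89%, with 4.02% in rescue. On chromosome 22 it was 1.68%, below the pooled mean of 1.69%, with 1.78% in rescue. The differences were small. Chromosome 6 held 6.02% of rescue and 6.22% of KO1 and WT regions (adjusted p = 0.0124 by the exact test), with 6.20% in KO2. Chromosome 16 held 3.21% and 3.04% (adjusted p = 0.0124 by the exact test), with 3.09% in KO2. Chromosome 19 held 2.63% in rescue, 2.26% in KO2, 2.18% in KO1 and 2.64% in WT, and did not pass (adjusted p = 0.178 by the exact test).

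Short motifs were searched on both strands in 200 bp around each region's centre. The AP-1 motif TGANTCA was in 37.4% of regions held by all 6, 32.5% of those held by none and 27.5% of all regions in the peak set. The ETS motif CCGGAA was in 5.82% (55 regions) and 2.41% (21 regions), against 3.42% of all, and the share held was higher in regions with it in 6 of 6 libraries, at 64.2 ± 4.70% against a mean of 50.5% without. GGGCGG, bound by SP and KLF factors, was in 8.47% and 4.59%, against 8.55% of all, and the E-box CAGGTG in 15.4% and 9.52%, against 16.2%. The opposite order held for NF-kB (GGGNNTTCC, 3.17% and 6.54%, against 4.97% of all) and C/EBP (TTGCNNAA, 7.20% and 11.6%, against 10.4%). HNF1 (GTTAATNAT), which marks sites of a renal epithelial factor, was in 1 region held by all 6 and 10 held by none, 0.106% and 1.15%, against 1.23% of all. CTCF motifs were rare in both, 0.423% and 0.344%, against 2.50% of all. The ETS and TEAD (GGAATG) motifs can share letters. The motifs that were more frequent in regions held by all 6 include GC-rich ones, and these regions had more GC, as given above; the part of GC in these shares was not tested. A match is not a bound site.

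Gene lists are described by their counts of KO2-private regions, which made up 1.28% of the whole peak set. The matrix and adhesion list had 23 in 827 regions (2.78%), of which 15 were held by all 6 and 3 by none, but 18 of the 23 lay at COL5A1. The median region of this list was held by 100% of the rescue libraries, against 50% for all KO2-private regions. Outside COL5A1, ITGA2, a collagen-binding integrin, had 1 held by all 6, while COL4A2 and LAMA2, of the basement membrane, each had 1 held by none. The growth factor and WNT list had 13 (1.70%), with a median of 66.7% and 5 held by all 6, at FGF1, GDF15, EREG, VEGFC and DKK2, and 1 held by none, at BMP7. The epithelial junction list had 7 (1.81%), with CLDN10 and TJP1 among those held by all 6. The mesenchymal and EMT list had 6 (1.23%), of which 1, at TWIST1, was held by all 6 and 1, at LOXL2, by none. The proximal tubule list had 4 (1.10%), with CUBN held by all 6 and SLC16A9 by none, and the kidney lineage list had 3 (0.940%), with both regions at EYA1 held by none.

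The neuronal list, of genes foreign to this tissue, had 11 KO2-private regions in 259 (4.25%), 8 of them at GRIN2A, a glutamate receptor subunit; 2 were held by all 6 and 2 by none. The interferon list had 2 (0.826%). The stemness list had 1, at LIN28B, held by all 6, and the cytokine list 1, at CCL20, held by none. The HOX list had 1 and the haematopoietic list 1, at CD3E, each held by some rescue libraries, and the endothelial list had 0 of 179 regions. The share of list regions held by each library was not tested, and no list is called apart from the rest.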

How the data were processed

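RPTEC ATAC-seq libraries (WT, KO1, KO2, Rescue1, Rescue2, 3 each) were analysed from narrowPeak lists. Per the labels' processing notes the authors used BWA 0.7.17, MACS2 2.2.7.1, DiffBind 2.14.0 and hg38; the study's methods name another BWA release. Peaks were called per library, without pooling. Control tracks, duplicate removal and excluded regions are not given in the sources used here. The deposited columns hold peak positions, a score, the fold enrichment (ratio) over the library's own background, and −log10 p and −log10 q. Fold enrichment was used only as values and ranks within a list. The lists hold no read counts, so depth is unknown here and the number of peaks per list stands in for it.

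Peaks on chromosomes 1 to 22, X and Y sharing 1 bp or more were merged, and regions with peaks of 2 or more of 15 libraries were kept. Genes and start sites were from GENCODE 44; sequence was from hg38. Percentages held were compared by exact sign-flip or permutation tests over libraries (Python 3.11.15, numpy 2.4.6, pandas 2.3.3, scipy 1.17.1), after the code had been tested on simulated data. Figures used matplotlib 3.10.9. Members and lists were chosen with earlier results of these data known. Named were the 6 regions of highest KO2 rank, the 10 genes, the 12 promoters and the 5 windows richest in each class, and list genes with a region of either class; regions described within a gene, and genes of the cell type check, were picked after their values were seen. Some named items are not reported here. Alternatives were stricter q-values, equal list lengths, other region definitions and leaving out each library.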

Additional observations from a re-analysis of the deposited data

Results flagged for a closer look

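On chromosome 19, Rescue2 replicate 1 held 81.8% of the KO2-private regions, while the other rescue libraries held 57.6 to 65.2%, a gap beyond Dixon's 95% limit for 6 values. This library has the longest peak list. Of 29 per-library percentages and differences examined in this way, 1 passed the limit, and chance gives about 1 in 20.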

How the results depend on the processing

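With 150000 peaks in every library there were 2017 KO2-private regions, 28.3% held by all 6 rescue libraries and 26.5% by none. With peaks needed in 2 or more of 3 KO2 libraries the numbers were 10232, 14.6% and 32.1%. With −log10 q of 5 or more, 28.0% were held by all 6. With peaks covering 0.5 of a region, 20.8% were held by all and 24.9% by none, and with no KO1 or WT peak within 1000 bp, 24.6% by none. Leaving out 1 library at a time gave 3774 to 6889 regions, 17.5 to 27.9% held by all and 21.8 to 30.1% by none, with the highest number, the lowest share held by all and the highest share held by none without KO2 replicate 2. With 1 library left out, the KO2-private minus KO1-private difference stayed positive (29.4 to 41.6 percentage points). It was 27.6 with peaks needed in 2 or more of 3 libraries of the clone. With 5 rescue libraries it could not pass, since the smallest p of the exact sign-flip test is then 0.0625. Against regions gained in both KO clones it was -13.9, by the choice of set. The GC difference was 9.19 to 12.4 with 1 library left out, under the same limit for 5 rescue libraries. Promoter minus intergenic, never past the threshold, was 0.536 to 2.77 with 1 library left out. Over the other alternatives it ran from -0.725, with no KO1 or WT peak within 1000 bp, to 4.75, with 150000 peaks in every library. Rescue2 minus Rescue1 was 7.30 to 15.8 with 1 library left out. Chromosomes that differed numbered 7 to 12 over all alternatives.

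With replicate numbers as a replicate block, Rescue2 minus Rescue1 was 11.7 percentage points (exact sign-flip permutation test over 3 pairs, p = 0.25, the smallest possible). Same-numbered rescue libraries correlated at -0.00186 to 0.0291 in their deviations. Whether the replicate numbers pair the samples was not tested. Lists without read counts limit all results to called peaks.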
